A study of Homo sapiens with 15 samples.

Results

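The genes described here are those of the transcriptional coactivators YAP and TAZ and of TEAD1, a DNA-binding factor through which they act, with 6 genes known as their targets. They are 9 listed symbols, YAP1, WWTR1, TEAD1, CCN1, CCN2, ANKRD1, AMOTL2, LATS2 and AJUBA, each matched to 1 of the 58395 Ensembl gene IDs of the count table (CCN1 and CCN2 are named CYR61 and CTGF in GENCODE 29). RNA came from H1299, an established line grown from a human non-small cell lung carcinoma, for which the labels name the lymph node as tissue. The cells grew for a day in RPMI 1640 with serum and then spent 12 h in serum-free RPMI 1640 of 5 kinds, with 3 libraries of poly(A) RNA for each. These media held 5 mM glucose plus 4 mM NH4Cl (ammonium chloride), 5 mM glucose with 4 mM glutamine, 4 mM glutamine alone, 5 mM glucose alone, or neither nutrient. No serum was present in any of them. The labels name triplicate cells of 1 line without a culture day or batch, and each p-value therefore reflects the spread among these samples alone, part of which may be technical.

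YAP and TAZ (the product of WWTR1) shuttle between cytoplasm and nucleus, where they bind TEAD factors and switch on genes of growth, adhesion and matrix. The Hippo kinases LATS1 and LATS2 phosphorylate both proteins and so keep them in the cytoplasm, and angiomotin-family proteins such as that of AMOTL2 hold them there. Several targets feed back on the pathway, among them LATS2 and AMOTL2. The activity of YAP is set largely by phosphorylation, location and stability of the protein, which transcript counts do not show, and serum is known to raise it.

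Libraries held 14914127 to 19938691 counts, and all 9 genes were among the 16889 that passed the low-count filter. Levels are in CPM, counts per 1000000 of the TMM-scaled library total, as a mean ± SD of 3 libraries, and log2 changes carry their standard error (SE) from the fit of all 15 libraries. A lower CPM can mean less RNA of the gene per cell, fewer cells that express it or more RNA of other genes. Bulk RNA cannot tell these apart. The medium with neither nutrient stood apart in composition, since its 10 most counted genes held 12.4% of counts, against 5.57% to 7.08% in the other media, and its TMM factors were 0.793 to 0.794, against 1.01 to 1.08. With library totals alone as scaling, the all-gene median against that medium shifted up by 0.45 on the log2 scale for glucose with NH4Cl, 0.44 for both nutrients, 0.34 for glutamine and 0.44 for glucose, and printed values that it turns round or moves by over 1.5 times carry the value with library totals beside them. The carcinoma markers VIM (mean 2153 CPM), KRT18 (403 CPM) and KRT8 (307 CPM) were abundant. The epithelial marker KRT19 averaged 1.22 CPM, and CDH1 and EPCAM reached at most 6 and 16 counts in a library. Summed over each list, 4 leukocyte markers lay at 1.26 to 7.19 CPM, 5 fibroblast markers at 1.02 to 2.98 CPM and 4 endothelial markers at 10.1 to 18 CPM in the 15 libraries, and the defining leukocyte genes PTPRC and CD3E reached 12 and 2 counts. The endothelial sum was nearly all ENG (mean 12.8 CPM), while PECAM1, VWF and CDH5 averaged 0.158, 0.308 and 0.023 CPM.

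TEAD factors bind DNA at the letters GGAATG, and the promoter of CCN2 is shown because it carries them more often than nearly all others and because CCN2 had the largest change of these genes when glutamine was added to glucose. It was searched, with the RefSeq promoters of GRCh38.p14, in the 250 bases before the start, on both strands. The 249 of these bases that lie outside the GENCODE 29 transcript are printed from 5′ to 3′ on the minus strand, at chr6:131951374-131951622, with each match in capitals.
CCN2: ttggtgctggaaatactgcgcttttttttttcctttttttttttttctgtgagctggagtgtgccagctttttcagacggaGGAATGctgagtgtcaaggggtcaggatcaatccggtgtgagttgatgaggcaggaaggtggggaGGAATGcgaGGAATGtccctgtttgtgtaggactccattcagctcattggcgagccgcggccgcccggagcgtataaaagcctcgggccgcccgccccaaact
CCN2 held 3 matches, at positions -169 to -164, -104 to -99 and -95 to -90 from the start. At least 3 matches were present in 26 of 27305 promoters (0.0952%), and at least 1 in 11.9%.

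ANKRD1 is shown as the contrasting gene, since it also carries the letters but moved opposite to CCN2 when glutamine was added to glucose. It held 2 GGAATG matches and 1 match to the AP-1 letters TGANTCA, which do not overlap each other. The letter N was searched as any base, and it was T in the ANKRD1 match. At least 2 GGAATG matches were present in 0.963% of promoters and at least 1 AP-1 match in 6.6%. The RefSeq start of ANKRD1 lies 189 bases inside the GENCODE 29 transcript, so only 30 bases around each match are printed, 5′ to 3′ on the minus strand, with the match in capitals. The proximal TEAD letters lie inside that transcript and the AP-1 letters reach its edge. Only the distal TEAD letters lie wholly before it. They lie at chr10:90921290-90921319, chr10:90921264-90921293 and chr10:90921198-90921227 (GRCh38.p14).
ANKRD1 distal TEAD letters: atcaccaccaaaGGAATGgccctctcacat
ANKRD1 AP-1 letters: acatttcttccTGATTCAcatattcagcag
ANKRD1 proximal TEAD letters: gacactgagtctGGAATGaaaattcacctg
YAP1 held 1 GGAATG match, and none was found in the windows of WWTR1, AMOTL2, LATS2 and AJUBA. The WWTR1 window (chr3:149703274-149703523, minus strand) lies wholly inside its GENCODE 29 gene, which starts at 149736714. The bases before that start were not searched. The windows of AMOTL2 and AJUBA lie partly inside their GENCODE 29 genes. A match is a description of letters in the searched window and not of a bound site. Promoters of 7 of the 9 genes were in the table, without TEAD1 and CCN1.

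**Figure D1:**
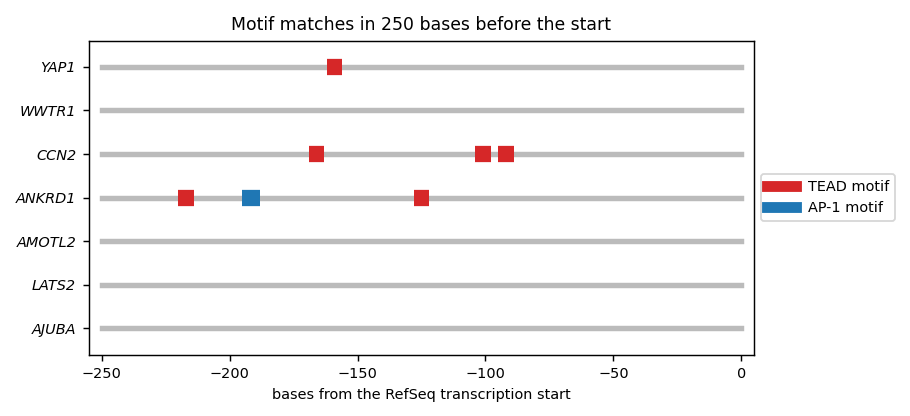
Matches to the TEAD letters (red) and the AP-1 letters (blue) in the 250 bases before the RefSeq start of 7 genes, with the distance from the start in bases on the x axis. CCN2 has 3 TEAD matches and ANKRD1 has 2 with 1 AP-1 match between them, while YAP1 has 1.

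The transcripts of YAP1 and TEAD1 were most abundant in glucose alone. YAP1 (ENSG00000137693, chromosome 11, 102110461 to 102233423, GRCh38) was at 164, 164 and 160 CPM with glucose and NH4Cl, at 151, 154 and 152 CPM with glucose and glutamine, at 125, 124 and 128 CPM with glutamine alone, at 180, 178 and 175 CPM with glucose alone, and at 118, 109 and 106 CPM with neither. Its 5 media did not overlap, and each pair of media next to each other in order of level differed by edgeR. The spread between media was small, with the highest mean 1.6-fold above the lowest. YAP1 was higher with glucose alone than with neither (log2 0.68 ± 0.031, adjusted p = 4.54e-52, and 1.11 with library totals alone) and lower when glutamine was added to glucose (-0.22 ± 0.029, adjusted p = 1.21e-12), a change that did not pass against a 1.2-fold change.

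TEAD1 (ENSG00000187079, chromosome 11, 12674591 to 12944483) encodes a TEAD factor that brings YAP and TAZ to DNA. It was at 119, 126 and 113 CPM with glucose and NH4Cl, at 98.7, 97.1 and 92.6 CPM with glucose and glutamine, at 72.8, 74.1 and 70 CPM with glutamine alone, at 149, 149 and 149 CPM with glucose alone, and at 93.4, 83.1 and 91.6 CPM with neither. Its order of media was that of YAP1 except at the low end, where glutamine alone was lowest. TEAD1 averaged 72.3 ± 2.06 CPM with glutamine alone and 149 ± 0.159 CPM with glucose alone (SD, n = 3 each; log2 -1.04 ± 0.034). The libraries with both nutrients and with neither overlapped, and the difference of 0.10 ± 0.036 between them (adjusted p = 0.008) was not called with DESeq2 size factors (0.07), without a low-count filter (0.07), by DESeq2 (0.06), without glucose and glutamine replicate 1 (0.08) or without neither replicate 2 (0.05). With library totals alone it was larger and called (0.55, adjusted p = 2.49e-28), whereas the difference between glutamine alone and neither turned to 0.04 and did not pass (adjusted p = 0.364).

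WWTR1 (ENSG00000018408, chromosome 3, 149517235 to 149736714) encodes TAZ and was highest in the 2 media with glutamine. It was at 110, 112 and 112 CPM with glucose and NH4Cl, at 159, 163 and 164 CPM with glucose and glutamine, at 139, 144 and 136 CPM with glutamine alone, at 108, 111 and 110 CPM with glucose alone, and at 119, 109 and 115 CPM with neither. The libraries with glutamine lay above all 9 without it. Glutamine raised WWTR1 in the presence of glucose (log2 0.57 ± 0.03, adjusted p = 1.7e-43) and in its absence (0.29 ± 0.032, adjusted p = 3e-16, and 0.63 with library totals alone). The 3 media without glutamine overlapped: glucose with NH4Cl against glucose gave 0.02 ± 0.032 (95% interval -0.05 to 0.09), and glucose against neither gave -0.06 ± 0.033 (-0.14 to 0.01). The value for glucose against neither was called with DESeq2 size factors (-0.08), by DESeq2 (-0.09), without a low-count filter (-0.10) and on leaving out any of 9 of the 15 libraries (-0.07 to -0.10), and that for glucose and NH4Cl against neither was called without neither replicate 2 (-0.08). With library totals alone, WWTR1 was higher with glucose than with neither (0.37) and higher with glucose and NH4Cl than with neither (0.40). The antisense gene WWTR1-AS1 overlaps 795 bases of WWTR1 exons but held 9 to 28 counts in a library, against 1395 to 3070 counts of WWTR1.

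CCN2, which encodes a secreted matricellular protein long known as connective tissue growth factor, had the widest range of the abundant genes. CCN2 (ENSG00000118523, chromosome 6, 131948176 to 131951373) was at 205, 197 and 197 CPM with glucose and NH4Cl, at 77.1, 77.7 and 73.3 CPM with glucose and glutamine, at 77.3, 76.3 and 78 CPM with glutamine alone, at 317, 327 and 322 CPM with glucose alone, and at 146, 151 and 152 CPM with neither. The 6 libraries with glutamine lay together at the bottom whether or not glucose was present (glucose and glutamine against glutamine alone -0.02 ± 0.034, 95% interval -0.10 to 0.05, adjusted p = 0.578). Library totals alone turned that small difference to 0.08 (adjusted p = 0.0375). Without glutamine, glucose raised CCN2 (log2 1.10 ± 0.028 against neither, adjusted p = 3.21e-90). Added to glucose, glutamine lowered it to 76 ± 2.38 CPM, against 322 ± 5.26 CPM with glucose alone (-2.08 ± 0.03, adjusted p = 1.02e-132), and NH4Cl lowered it to 200 ± 4.99 CPM (-0.69 ± 0.026, adjusted p = 7.32e-61).

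AJUBA encodes a LIM-domain scaffold protein that binds and restrains LATS kinases. By mean level, the order of the 3 glucose media was the same for AJUBA as for CCN2, YAP1, TEAD1, LATS2 and AMOTL2. AJUBA (ENSG00000129474, chromosome 14, 22971174 to 22982642) was at 108, 106 and 102 CPM with glucose and NH4Cl, at 57.6, 56.2 and 54.8 CPM with glucose and glutamine, at 46.3, 46.5 and 48.4 CPM with glutamine alone, at 138, 146 and 138 CPM with glucose alone, and at 44.9, 47.4 and 46.7 CPM with neither. The 9 libraries with glucose lay above the other 6, and glutamine alone overlapped with neither (log2 0.02 ± 0.045, 95% interval -0.08 to 0.12), although library totals alone put it higher with glutamine alone (0.37). Glucose raised AJUBA without glutamine (1.60 ± 0.037 against neither, adjusted p = 5.55e-96). Against glucose alone, AJUBA was lower with glutamine added (-1.32 ± 0.034, adjusted p = 4.53e-89) and with NH4Cl added (-0.41 ± 0.031, adjusted p = 4.9e-27).

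LATS2, a kinase gene that is both an inhibitor and a target of YAP, was also highest in glucose alone. LATS2 (ENSG00000150457, chromosome 13, 20973032 to 21061547) was at 55.8, 54 and 57.5 CPM with glucose and NH4Cl, at 35.6, 35.8 and 37.5 CPM with glucose and glutamine, at 39.7, 41.7 and 41.4 CPM with glutamine alone, at 61.8, 63.3 and 58.3 CPM with glucose alone, and at 37, 35.9 and 38.6 CPM with neither. The 6 libraries with glucose and no glutamine lay above the other 9. Glutamine lowered it in glucose (-0.75 ± 0.046, adjusted p = 8.35e-37). The decrease with NH4Cl (-0.13 ± 0.043, adjusted p = 0.0101) was not called without a low-count filter (-0.11), by DESeq2 (-0.12), without glucose and NH4Cl replicate 2 (-0.11) or without glucose replicate 2 (-0.11). Glutamine alone against neither (0.14 ± 0.052, adjusted p = 0.0111) was likewise not called without a low-count filter (0.13), by DESeq2 (0.11), without glutamine replicate 2 (0.12) or without neither replicate 2 (0.12), and it was 0.48 and called with library totals alone (adjusted p = 3.82e-16). The difference between both nutrients and neither did not pass (-0.03 ± 0.053, 95% interval -0.15 to 0.08) but was 0.41 and called with library totals alone.

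CCN1, which encodes the matricellular protein CYR61, did not follow CCN2. CCN1 (ENSG00000142871, chromosome 1, 85580761 to 85583962) was at 328, 322 and 323 CPM with glucose and NH4Cl, at 368, 373 and 363 CPM with glucose and glutamine, at 212, 211 and 213 CPM with glutamine alone, at 362, 371 and 362 CPM with glucose alone, and at 526, 520 and 524 CPM with neither. It was highest where both nutrients were missing and lowest with glutamine alone. Adding glutamine to glucose gave no called change (log2 0.01 ± 0.022, 95% interval -0.04 to 0.06, adjusted p = 0.662), whereas adding it to the medium with neither lowered CCN1 to 212 ± 1.14 CPM, against 523 ± 3.19 CPM with neither (-1.31 ± 0.023, adjusted p = 8.24e-117). Glucose alone was below neither (-0.52 ± 0.022), a difference that shrank to -0.08 with library totals alone. Both nutrients were below neither by -0.51 ± 0.022 with TMM scaling and by -0.07 with library totals, and both values were called.

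ANKRD1 encodes a repeat protein of the nucleus and, in muscle, of the sarcomere, and was the least abundant of these genes, with 41 to 235 counts in a library. ANKRD1 (ENSG00000148677, chromosome 10, 90912096 to 90921276) was at 3.01, 2.36 and 2.8 CPM with glucose and NH4Cl, at 7.21, 9.1 and 7.78 CPM with glucose and glutamine, at 3.35, 4.49 and 4.93 CPM with glutamine alone, at 3.18, 3.34 and 3.19 CPM with glucose alone, and at 15.7, 14.6 and 14.1 CPM with neither. Neither nutrient gave the highest level, and both together the next highest. Either nutrient alone lowered it, glutamine by log2 -1.80 ± 0.118 and glucose by -2.20 ± 0.125 against neither (adjusted p = 1.62e-33 and 2.04e-40). Added to glucose, glutamine raised it to 8.03 ± 0.974 CPM, against 3.23 ± 0.0877 CPM with glucose alone (1.31 ± 0.134, adjusted p = 1.06e-17). The change with NH4Cl did not pass (-0.25 ± 0.17, 95% interval -0.63 to 0.13). Glutamine alone against glucose alone (0.40 ± 0.152, adjusted p = 0.0152) lost its call with library totals (0.31) and without glutamine replicate 2 (0.36) or 3 (0.30).

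AMOTL2, an angiomotin-family gene whose protein sequesters YAP, varied little except with glutamine. AMOTL2 (ENSG00000114019, chromosome 3, 134355874 to 134375479) was at 207, 218 and 219 CPM with glucose and NH4Cl, at 163, 159 and 154 CPM with glucose and glutamine, at 149, 140 and 145 CPM with glutamine alone, at 222, 220 and 219 CPM with glucose alone, and at 236, 234 and 226 CPM with neither. The 6 libraries with glutamine lay below the other 9. Glutamine lowered it in glucose (-0.47 ± 0.028, adjusted p = 4.46e-39) and without glucose (-0.68 ± 0.028, adjusted p = 1.65e-57, and -0.34 with library totals alone). The change with NH4Cl did not pass (-0.04 ± 0.027, 95% interval -0.10 to 0.02). AMOTL2 was slightly lower with glucose alone than with neither (-0.08 ± 0.027) and slightly lower with glucose and NH4Cl than with neither (-0.11 ± 0.027), but both turned with library totals alone, to 0.36 and 0.33.

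**Figure D2:**
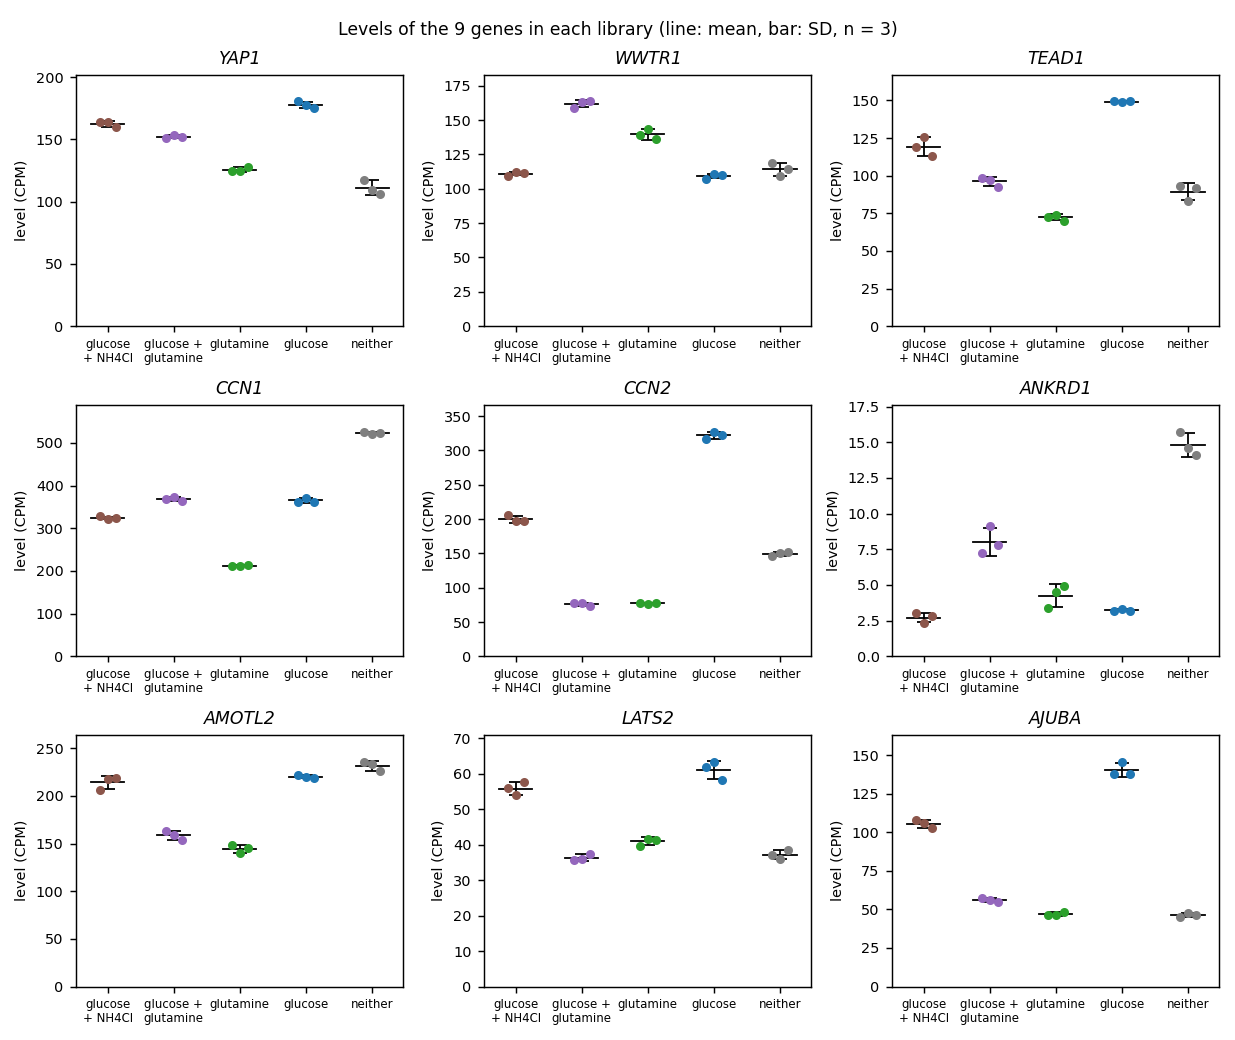
Level of each of the 9 genes in CPM (y axis, from 0) in the 5 media (x axis), with 1 point per library and a line and bar for mean and SD (n = 3). CCN2 and AJUBA peak in glucose alone at 322 and 140 CPM, CCN1 and ANKRD1 in the medium with neither at 523 and 14.8 CPM, and WWTR1 in the medium with both at 162 CPM.

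Levels of different genes are compared per kilobase of exon. In glucose alone CCN1 was at 149 and CCN2 at 138 CPM per kilobase, far above AMOTL2 (36.8), YAP1 (28.2), AJUBA (23.5), TEAD1 (14.5), WWTR1 (13), LATS2 (11) and ANKRD1 (1.63). With both nutrients CCN1 was at 150 and CCN2 at 32.5 CPM per kilobase, so the level of CCN1 was several times that of CCN2 there. YAP1 was at 24.2 and WWTR1 at 19.2 CPM per kilobase in the same medium, closer together than in glucose alone. These figures use the summed exons of every GENCODE 29 transcript of a gene and therefore understate genes with long rarely used exons.

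When glutamine was added to glucose, WWTR1 and ANKRD1 rose, and CCN2, AJUBA, LATS2, TEAD1, AMOTL2 and YAP1 fell, while CCN1 was not called. That is 8 of 9 genes, in a comparison where 67.9% of the 16889 tested genes were called by edgeR (34.2% higher and 33.7% lower), so a call alone does not set these genes apart. Their median log2 change was -0.47, against 0.00 over all tested genes. The known targets ANKRD1 and CCN2 moved in opposite directions, by 1.31 and -2.08. Against a 1.2-fold change 7 of the 9 passed, without YAP1 and CCN1, and 43.9% of all tested genes.

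When NH4Cl was added to glucose, 6 of 9 genes fell and 0 rose by edgeR. In this comparison 29.6% of all tested genes were called, and 16.9% were lower. CCN2 (-0.69) and AJUBA (-0.41) fell most, then TEAD1 (-0.32 ± 0.031, adjusted p = 3.34e-17), CCN1 (-0.17 ± 0.022, adjusted p = 1.97e-11), LATS2 and YAP1 (-0.13 ± 0.029, adjusted p = 9.52e-05). CCN2 and AJUBA alone passed against a 1.2-fold change, which 2.63% of all tested genes did. The median of the 9 was -0.17, against -0.01 over all genes. The additions of NH4Cl and of glutamine are set against the same 3 glucose libraries.

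With NH4Cl in place of glutamine, all 9 genes differed, 6 higher and 3 lower, where 64.6% of tested genes did (31.2% higher and 33.4% lower). CCN2 was higher (200 ± 4.99 CPM with NH4Cl, against 76 ± 2.38 CPM with glutamine; log2 1.39 ± 0.031), as were AJUBA (0.91 ± 0.036), LATS2 (0.62 ± 0.047), AMOTL2 (0.44 ± 0.028), TEAD1 (0.31 ± 0.033) and YAP1 (0.10 ± 0.029). ANKRD1 (-1.56 ± 0.141), WWTR1 (-0.54 ± 0.03) and CCN1 (-0.18 ± 0.022) were lower. YAP1 and CCN1 did not pass against a 1.2-fold change, which 38% of tested genes did.

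The remaining pairs of media called nearly all of these genes as well. Glutamine alone against glucose alone called 9 of 9 (66.5% of tested genes), 7 lower and 2 higher (33% and 33.5% of tested genes), with a median of -0.61 that was led by CCN2 (-2.06 ± 0.03) and AJUBA (-1.58 ± 0.035). Glucose and glutamine against glutamine alone called 8 of 9 (65.6% of tested genes), 7 higher and 1 lower (32.6% and 33% of tested genes), led by ANKRD1 (0.91 ± 0.126) and CCN1 (0.80 ± 0.023), with LATS2 lower (-0.17 ± 0.049). There 8 were higher and 0 lower with library totals alone, CCN2 being called higher and LATS2 not called (-0.08), and 6762 of all tested genes were higher and 4370 lower. Against neither, 8 of 9 were called in each of the 4 media. With glucose and NH4Cl 5 were higher and 3 lower (77.5% of tested genes called, 39.6% higher and 37.9% lower). With both nutrients 4 were higher and 4 lower (72.3% called, 37% higher and 35.3% lower), with glutamine alone 3 were higher and 5 lower (72.8% called, 37% higher and 35.8% lower), and with glucose alone 5 were higher and 3 lower (77.8% called, 39.9% higher and 37.9% lower). Glucose and NH4Cl against glutamine alone called 9 (64.4%), 7 higher and 2 lower (31.6% and 32.8% of tested genes), led by CCN2 (1.37 ± 0.031). Library totals alone left these 7 and 2, with 6774 of all tested genes higher and 4263 lower.

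The near balance of directions against neither holds with TMM scaling. With library totals alone, glucose and NH4Cl had 7 of the 9 genes higher and 2 lower (10270 of all tested genes higher and 3327 lower), and both nutrients had 5 higher and 4 lower (10858 and 2413 of all tested genes). Glutamine alone had 4 higher and 4 lower (9531 and 3314), and glucose alone had 7 higher and 2 lower (10138 and 3539).

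Against a 1.2-fold change fewer of the 9 genes passed in some of these pairs. Glucose and glutamine against glutamine alone left TEAD1, CCN1 and ANKRD1 (3 of 9, with 38.4% of tested genes), and glutamine alone against neither left CCN1, CCN2, ANKRD1 and AMOTL2 (4 of 9, with 54.2%). Glutamine alone against glucose alone kept 8 (39.6%), glucose and NH4Cl against glutamine alone kept 9 (35.6%), and against neither glucose and NH4Cl kept 7 (61%), both nutrients 6 (52%) and glucose alone 7 (62.6%).

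**Figure D3:**
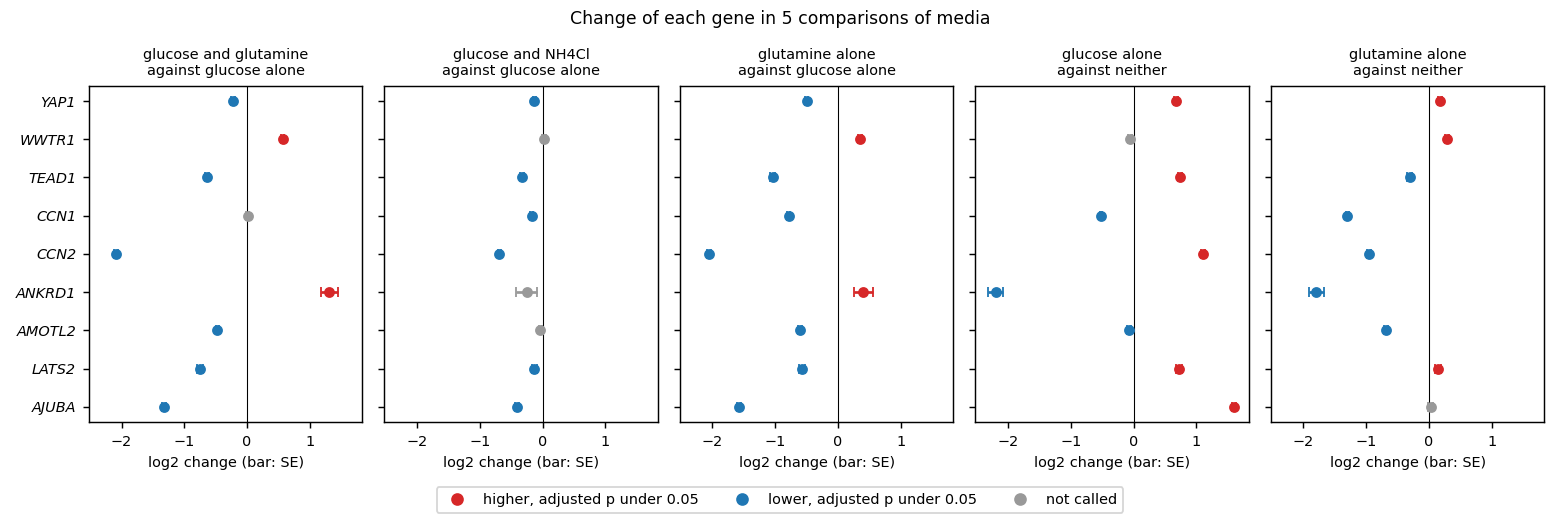
Log2 change (x axis, bar for the SE) of each of the 9 genes in 5 comparisons, coloured by its call at an edgeR adjusted p under 0.05. Addition of glutamine to glucose moves CCN2 by -2.08 and ANKRD1 by 1.31, addition of NH4Cl moves CCN2 by -0.69, and ANKRD1 lies at -2.20 in glucose alone against neither.

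Whether glucose acts differently with and without glutamine was tested as an interaction, which called 74.8% of all tested genes (36.8% higher and 38% lower) and all 9 of these (4 higher and 5 lower). With library totals alone it called 2 of the 9 higher and 6 lower, and 4328 of all tested genes higher and 8492 lower. Against a 1.2-fold difference 7 of the 9 passed, without WWTR1 and AMOTL2, and 63.2% of all tested genes. Without glutamine, glucose raised AJUBA by 1.60, CCN2 by 1.10 and LATS2 by 0.72 (1.15 with library totals alone). With glutamine present the corresponding values were 0.26, -0.02 and -0.17, so the effects differed by -1.34 ± 0.056, -1.13 ± 0.044 and -0.89 ± 0.069 (adjusted p = 5.12e-57, 6.7e-61 and 7.82e-27). CCN1 and ANKRD1 turned round the other way: glucose raised them with glutamine (0.80 and 0.91) and lowered them without it (-0.52 and -2.20), differences of 1.32 ± 0.032 and 3.10 ± 0.179 (adjusted p = 8.32e-94 and 8.06e-40). With library totals alone the lowering of CCN1 without glutamine shrank to -0.08. The rise of YAP1 and TEAD1 with glucose was smaller when glutamine was present (differences of -0.40 ± 0.043 and -0.33 ± 0.05, and -0.74 and -0.67 with library totals alone). The small interactions of WWTR1 (0.27 ± 0.044) and AMOTL2 (0.21 ± 0.04) turned with the scaling, at -0.06 and -0.13 with library totals alone.

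**Figure D4:**
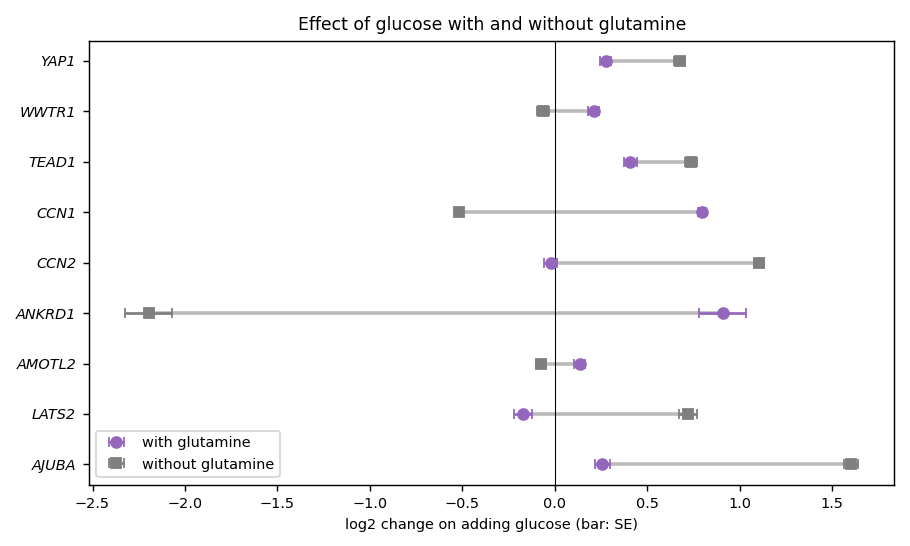
Log2 change on adding glucose (x axis, bar for the SE) with glutamine present (circles) and without it (squares) for each gene. For AJUBA, CCN2 and LATS2 the circle lies well to the left of the square, and for CCN1 and ANKRD1 it lies to the right, on the other side of 0. The square of CCN1 is at -0.52 with TMM scaling, and the value is -0.08 with library totals alone.

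Further genes reported as YAP and TEAD targets did not move as a block when glutamine was added to glucose. Of 22 listed, 19 were measured well enough to test, and FOXF2, AREG and EDN1 reached at most 3, 5 and 8 counts. With glutamine added to glucose 8 rose and 7 fell (median 0.10), where 34.2% of all tested genes were higher and 33.7% lower (median 0.00). GADD45A, a growth arrest and stress gene, fell to 40.2 ± 1.27 CPM, against 196 ± 3.96 CPM with glucose alone (log2 -2.28). THBS1, which encodes the matrix protein thrombospondin 1, rose to 47.8 ± 1.3 CPM, against 13.9 ± 1.39 CPM (1.78), and TGFB2, a growth factor gene, rose by 1.47. With NH4Cl added, 10 fell and 1 rose (median -0.16), where 16.9% of all tested genes were lower and 12.7% higher (median -0.01). The falls included GADD45A (-0.51), the receptor kinase gene AXL (-0.32, 756 ± 5.02 CPM with NH4Cl and 947 ± 25.1 CPM without) and CRIM1 (-0.31), while MYOF rose by 0.09.

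With glucose alone set against neither, 7 of these 19 further targets rose and 8 fell, where 39.9% of all tested genes were higher and 37.9% lower. Scaled by library totals alone, 13 rose and 5 fell, where 10138 of all tested genes were higher and 3539 lower. ARHGEF17 was among the 7 that rose, at 66.9 ± 1.35 CPM in glucose, against 27.9 ± 2.40 CPM with neither (1.25). THBS1 averaged 13.9 ± 1.39 CPM in glucose, against 63.1 ± 5.07 CPM with neither (-2.18). AXL was lower with glucose (-0.35) but higher with library totals alone (0.09).

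All 29 listed genes of the Hippo kinase cascade and its regulators were tested. With glutamine added to glucose 10 rose and 14 fell (median -0.03), against 34.2% higher and 33.7% lower over all tested genes. The list was led by NF2, the merlin tumour suppressor gene that acts upstream of the kinases, at 66.4 ± 1.69 CPM with glutamine and 31.3 ± 1.19 CPM without (log2 1.08). MOB1A, whose product activates LATS kinases, rose by 0.59 and the polarity gene SCRIB by 0.60, while FRMD6 (-0.79), WTIP, which like AJUBA encodes a LIM protein that inhibits LATS (-0.81), and the kinase gene TAOK1 (-0.47) fell. With NH4Cl added 13 fell and MOB1A alone rose (0.15), against 16.9% lower and 12.7% higher over all tested genes, with MAP4K4 (-0.25), FRMD6 (-0.33) and TAOK1 (-0.24) among the falls. With glucose alone against neither 21 rose and 5 fell, against 39.9% higher and 37.9% lower over all tested genes. On library totals alone 26 rose and 2 fell, a setting in which 10138 of all tested genes were higher and 3539 lower. Those that rose included TAOK1 at 155 ± 5.36 CPM in glucose, against 47.9 ± 1.54 CPM with neither (1.70), and STK4, a Hippo kinase gene (0.97). NF2 was lower there (-1.24, or -0.80 with library totals alone, 31.3 ± 1.19 CPM in glucose, against 73.9 ± 1.97 CPM with neither), as was WWC1 (37.4 ± 0.326 CPM in glucose, against 74.8 ± 0.83 CPM with neither, and log2 -0.57 with library totals alone).

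Of the other TEAD genes and the VGLL genes of TEAD cofactors, 6 of 7 were tested. VGLL4, whose product competes with YAP for TEAD factors, fell with glutamine added to glucose (-0.51, 23.8 ± 1.04 CPM with glutamine and 33.8 ± 1.02 CPM without), and TEAD2 (-0.16) and TEAD4 (-0.12) fell while TEAD3 rose (0.21). TEAD4 was lower with glucose alone than with neither (-0.81, 76.2 ± 0.662 CPM in glucose, against 134 ± 1.27 CPM with neither), opposite in direction to TEAD1 (0.74). The values on library totals alone were -0.38 for TEAD4 and 1.17 for TEAD1, and VGLL4 was higher with either scaling (0.97 with TMM). Per kilobase of exon, TEAD4 lay above TEAD1 in each medium. It was at 33.5 CPM with glucose alone and 58.8 CPM with neither, against 14.5 and 8.69 CPM for TEAD1. VGLL1 reached 1 count.

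SRF and its MRTF coactivators, which respond to actin and drive cytoskeletal genes, are known to share some target genes with YAP. Of 15 tested genes on this list 8 rose and 5 fell with glutamine added to glucose (median 0.28), against 34.2% higher and 33.7% lower over all tested genes. ACTB, the beta-actin gene, was at 2355 ± 66.9 CPM with glutamine and 958 ± 8.7 CPM without (1.30), and VCL (0.69) and CNN2 (0.90) rose, while SRF itself fell (-0.64). With glucose alone against neither 3 rose and 10 fell, against 39.9% higher and 37.9% lower over all tested genes. The counts on library totals alone were 6 and 8, where 10138 of all tested genes were higher and 3539 lower. The actin genes ACTB and ACTG1 were at 958 ± 8.7 and 2723 ± 25.3 CPM with glucose, against 5255 ± 33.2 and 8832 ± 13.7 CPM with neither (-2.46 and -1.70), and TPM1, a tropomyosin gene, was also lower (-1.81), while SRF was higher (0.81, or 1.24 with library totals alone). With TMM scaling the interaction was higher for 10 of the 15 and lower for 3, against 36.8% higher and 38% lower over all tested genes. ACTB, TPM1 and ACTG1 had interactions of 2.93, 2.99 and 1.27, of the same sign as those of CCN1 and ANKRD1. The interaction of SRF was -0.95, of the same sign as that of CCN2. With such shares over all tested genes, a shared sign alone does not set these genes apart. Counts of ACTB and ACTG1 are uncertain because they have many processed pseudogenes and the sources used here do not give the handling of multi-mapping reads. The part of these genes in the values of CCN1 and ANKRD1 was not tested.

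**Figure D5:**
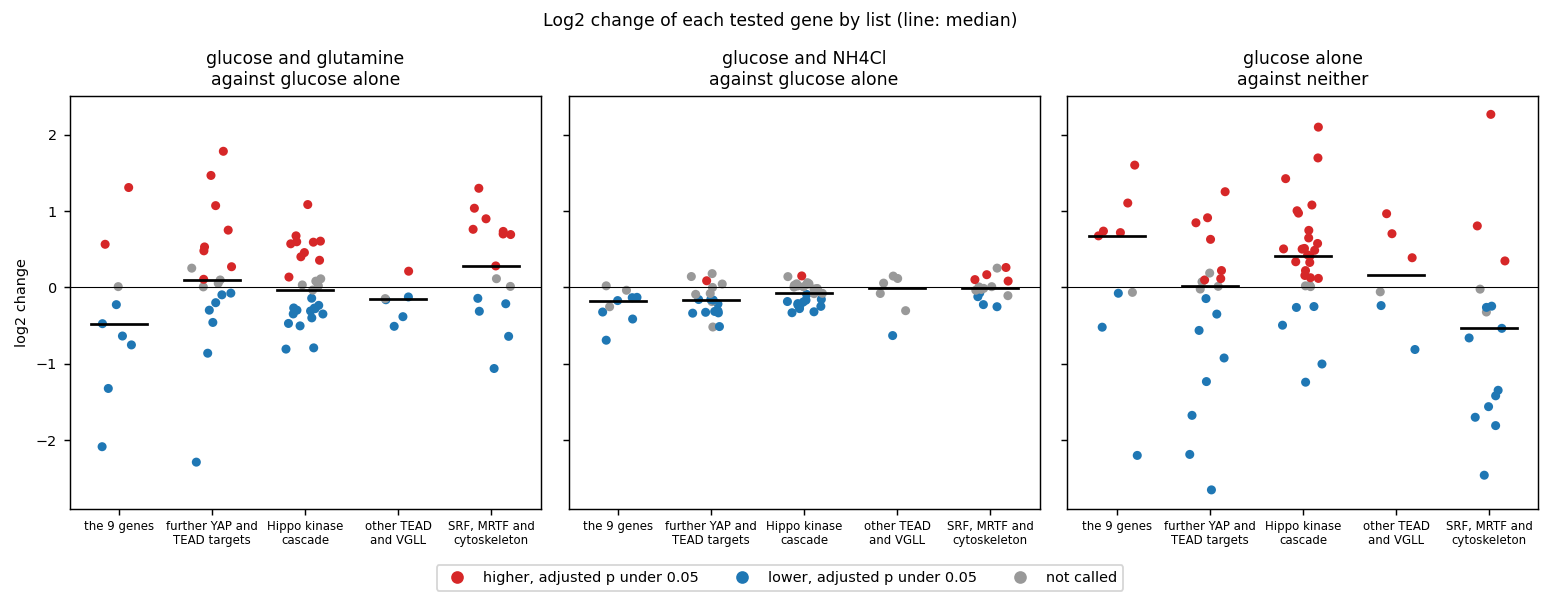
Log2 change (y axis) of every tested gene of the 9 and of 4 further lists in 3 comparisons, with 1 point per gene coloured by its edgeR call and a line at the median. The further YAP and TEAD targets lie on both sides of 0 with glutamine added (median 0.10) and mostly below it with NH4Cl added (median -0.16), and 10 of 15 genes of the SRF and cytoskeleton list were called lower in glucose alone against neither (8 with library totals alone).

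The genes most like YAP1, CCN1 and CCN2 in level were sought among 10500 other protein-coding genes averaging 5 CPM or more, by Pearson's r of log2 CPM over the 15 libraries. This is a description without a test, since the libraries form 5 groups by medium. YAP1 was most like PKN2 (r = 0.993), BMPR2 (0.99), STK38 (0.99) and XRN1 (0.99). CCN1 was most like TDRD12 (0.998), PFN2 (0.989), HNRNPM (0.988) and BIRC5 (0.986). CCN2 was most like TRA2A (0.992), KMT5A (0.992), AKIRIN1 (0.987) and SP2 (0.987). PFN2, for example, averaged 217 CPM with glucose and NH4Cl, 242 CPM with both nutrients, 135 CPM with glutamine, 231 CPM with glucose and 308 CPM with neither.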

How the data were processed

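RNA-seq counts per Ensembl gene were deposited by the authors as 1 table of raw counts with 1 column per library and no normalization. The submitters' processing notes name the build GRCh38.p12 and the tools Subread 1.5.1, featureCounts and HISAT2 2.1.0 without their roles. Poly(A) selection and a stranded kit are given per the labels' protocols, with the strand setting of the counting and the handling of multi-mapping reads both not given in the sources used here. Names, positions and exon lengths were taken from GENCODE 29 (Ensembl 94), where 58275 of 58395 IDs were found, and promoters from RefSeq (GRCh38.p14).

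The main test was edgeR's (4.0.16) quasi-likelihood F test on TMM-scaled counts (R 4.3.3, robust estimation, filterByExpr keeping 16889 genes). It used 1 fit of 15 libraries with a mean per medium and 10 residual degrees of freedom. The printed intervals of log2 changes rest on these 10 alone. The p-values of the F test rest on more degrees of freedom, so an interval is wider than its p-value would imply. A call means a two-sided p under 0.05 after Benjamini-Hochberg adjustment across every tested gene, and SEs were derived from the F statistic. The common biological coefficient of variation was 0.0221. The steps were tested on simulated data. No pair of libraries was identical. Replicate numbers were not taken as pairs. A floor of 3 counts lay between 0.15 and 0.201 CPM of the library totals before TMM scaling, covering counting error only.

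All 9 genes are named. From the other lists, the up to 3 genes with the smallest p in each direction and a mean of at least 5 CPM were eligible, and some of them are not reported here. The members, lists and rules were chosen with earlier results of these data known. As alternatives, scaling used DESeq2 size factors or totals alone, the low-count filter was dropped or set to 1 CPM in 3 libraries, and the test was DESeq2's Wald test (1.42.0, local dispersion fit), a fit of the compared media alone, a replicate block, or a test against a 1.2-fold change; each library was also left out in turn. The same alternatives for the other gene lists were chosen after seeing the data.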

Additional observations from a re-analysis of the deposited data

Results flagged for a closer look

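For each of the 9 genes the effect of glucose differed with and without glutamine by the interaction test of edgeR (adjusted p under 0.05), in a comparison that called 74.8% of all tested genes. The effect with glutamine minus the effect without it, on the log2 scale, was 3.10 for ANKRD1, 1.32 for CCN1, 0.27 for WWTR1, 0.21 for AMOTL2, -0.33 for TEAD1, -0.40 for YAP1, -0.89 for LATS2, -1.13 for CCN2 and -1.34 for AJUBA. The values of WWTR1 and AMOTL2 changed sign with library totals alone.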

How the results depend on the processing

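Each of the 9 genes was refitted in all 11 tests under 23 alternatives. With 1 CPM in 3 libraries, the compared media alone and the replicate block, all 99 values kept their direction and call. No call of these genes was changed by the block, which called 11450 genes (11467 without it) when glutamine was added to glucose and 4953 (4998 without it) with NH4Cl, and left the calls of the 9 genes at 8 and 6. Same-numbered libraries of different media did not deviate together (30 pairs, correlations -0.0762 to 0.0722, median -0.0016), and the best match of a library carried its own number in 5 of 15 cases. DESeq2 size factors changed 2 of 99 calls, and DESeq2 and the absence of a low-count filter 4 each. Counts of genes called moved by over 1.5 times only against a 1.2-fold change, to 2 with NH4Cl added to glucose, 3 with glucose and glutamine against glutamine alone and 4 with glutamine alone against neither. Leaving out each library kept those counts at 5 to 6, 8 and 7 to 8. Library totals alone reversed 9 values, to 0.36 for AMOTL2 and 0.37 for WWTR1 with glucose alone against neither, 0.33 and 0.40 with glucose and NH4Cl against neither, -0.13 and -0.062 in the interaction, 0.076 for CCN2 with both nutrients against glutamine alone, 0.41 for LATS2 with both against neither and 0.037 for TEAD1 with glutamine against neither. By construction these shifts follow the TMM factors, which were lowest with neither nutrient and next lowest with glutamine alone. Counting depth limits ANKRD1 most.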
